A study of Mus musculus with 21 samples.

Results

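The transcripts described here are 10 genes linked to regulatory T cells (Tregs): *Foxp3*, *Il2ra*, *Ctla4*, *Ikzf2*, *Tnfrsf18*, *Penk*, *Nt5e*, *Entpd1*, *Areg* and *Il10*. They were taken by gene symbol, and 10 of 10 were found among the 55491 genes of the lymph node table and among the 55491 genes of the skin table. *Penk* and *Nt5e* were chosen by their measured levels in irradiated nodes, so wherever irradiated nodes enter a comparison their values are given as a description, with no test.

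Polyadenylated RNA was sequenced from 12 inguinal lymph node libraries and 9 skin libraries of BALB/c mice that were wild type (WT) or carried an *Ifnk* transgene (TG). The keratin 14 promoter was used to drive the transgene in the epidermis. Which cells made interferon kappa was not measured here. The nodes came from WT without UV (replicates 1 to 3), TG without UV (4 to 6), WT after UV (7 to 9) and TG after UV (10 to 12), where UV means back skin exposed to 250 mJ/cm2 of 310 nm UVB on 3 days per week for 2 weeks, followed by 2 weeks of observation. The skin was unirradiated and came from WT (replicates 8 to 10), nonlesional TG skin (NL, replicates 2 and 3) and lesional TG skin (L, replicates 4 to 7). The mice that gave skin, WT and TG, were 12 months old per the sample protocol and the study, and the labels give no age for the node mice. Nodes were passed through a cell strainer before lysis. The labels do not say which libraries came from separate mice, so p-values measure the spread between these libraries, which may be technical in part.

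Library totals ran from 27599809 to 36428435 counts in nodes and from 40499078 to 56511276 in skin. *Ifnk* was at 0 counts in all 3 WT skin libraries, at 5 to 14 counts in the 4 L libraries and at 0 and 6 counts in the 2 NL libraries. In all 12 node libraries it was at 0, so it does not check their genotype labels. T cell markers were abundant in every node library, with a summed level of 3245 to 4154 CPM over 12 genes, against 38.1 to 107 CPM in skin. CPM are counts relative to library size, with that size scaled by TMM, a normalization that sets most genes level between libraries. In tissue of mixed cells, fewer cells of a type and less RNA per cell cannot be told apart.

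Regulatory T cells restrain other lymphocytes. FOXP3 is the transcription factor that defines the lineage, and IKZF2 (Helios) is a second nuclear factor common in it. The cells take up interleukin 2 through the high-affinity receptor chain IL2RA (CD25), remove costimulatory ligands through CTLA4, and carry the TNF-family receptor GITR, encoded by *Tnfrsf18*. At the cell surface ENTPD1 (CD39) degrades ATP to AMP and NT5E (CD73) turns AMP into adenosine, which dampens immune cells. Secreted products include interleukin 10, the EGF receptor ligand amphiregulin (*Areg*) and enkephalins, opioid peptides cut from the precursor encoded by *Penk*. Several of these genes are also used by other cells, so none but *Foxp3* marks the lineage in a bulk sample.

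The order of levels in nodes was as follows. Per kilobase of exon, *Tnfrsf18* was highest in WT nodes without UV at 25.8 ± 1.72 CPM/kb (SD, n = 3). *Foxp3* at 12.4 ± 1.59 and *Il2ra* at 10.5 ± 1.35 CPM/kb came next, and their libraries overlapped. *Ctla4* stood at 5.94 ± 1.52 CPM/kb. *Entpd1* at 3.44 ± 0.207 and *Ikzf2* at 3.20 ± 0.559 CPM/kb lay within their spread of each other. *Nt5e* at 1.49 ± 0.195 and *Penk* at 1.19 ± 0.376 CPM/kb did so too. *Il10* and *Areg* were near the limit of detection, with 1 to 19 and 1 to 5 counts per library over all 12 nodes.

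In skin the order was different. *Foxp3* was the lowest of the 10 genes in WT skin, at 0.0370 ± 0.0255 CPM/kb (SD, n = 3), and again in L skin, at 0.265 ± 0.0313 CPM/kb (n = 4). *Tnfrsf18*, *Entpd1* and *Nt5e* were the highest in WT skin, at 8.29 ± 1.06, 7.90 ± 2.40 and 7.77 ± 0.901 CPM/kb, and did not differ beyond their spread. *Areg*, near 0 in nodes, stood at 2.89 ± 1.89 CPM/kb in WT skin. The tissues were tabulated separately, so these levels are set side by side with no test.

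The first question was what UV did to these genes in skin-draining nodes. Over the nodes, 9 of 10 genes passed the filter on low counts (all but *Areg*), and 7 were open to a test of UV. None of the 7 was called in WT nodes or in TG nodes at an adjusted p of 0.05 (edgeR's quasi-likelihood test, Benjamini-Hochberg over 16173 genes). The background was 4.98% of genes called in WT nodes and 0% in TG nodes. At an unadjusted p under 0.05, 3 of the 7 (*Il2ra*, *Ctla4*, *Ikzf2*) passed in WT nodes against a background of 26.3%, and 2 (*Tnfrsf18*, *Entpd1*) in TG nodes against 9.32%.

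*Foxp3* itself overlapped between the node groups. The 3 WT nodes without UV held 64.9, 51.9 and 52.8 CPM, and the 3 after UV held 58.8, 65.3 and 64.1 CPM. TG nodes held 63.2, 48.9 and 52.5 CPM without UV and 50.0, 43.7 and 75.0 CPM after UV. The groups overlapped in both genotypes, and irradiated TG nodes spread the widest. The fitted log2 fold change with UV was 0.15 ± 0.17 (SE) in WT and 0.04 ± 0.17 in TG nodes (edgeR adjusted p = 0.618 and 0.967).

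**Figure D1:**
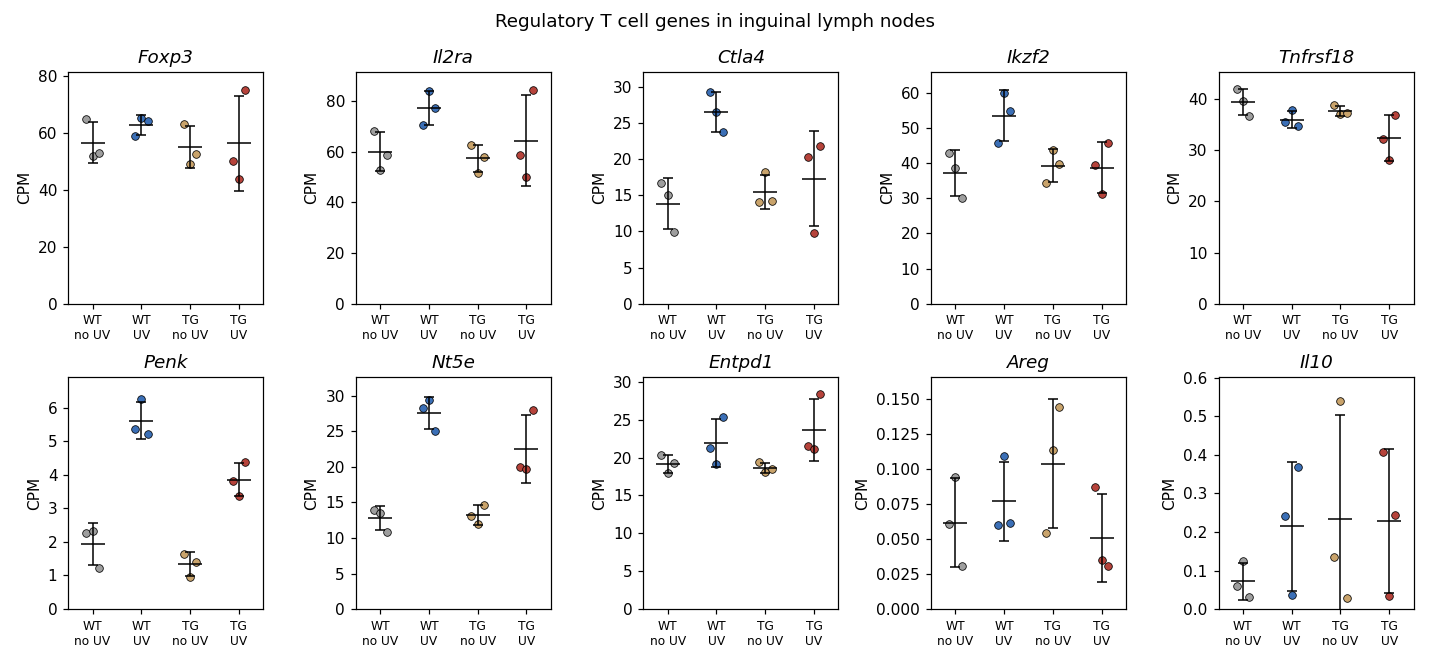
Levels of the 10 genes in inguinal lymph nodes, in TMM-scaled CPM on linear axes that start at 0; points are libraries, the long dash is the mean and the bars are 1 SD (n = 3 per group). *Foxp3* overlaps between all groups, *Ctla4* in WT nodes moves from 9.86 to 16.7 CPM without UV to 23.7 to 29.2 CPM after UV, and *Penk* and *Nt5e* show no overlap with UV in either genotype.

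*Ctla4* and *Ikzf2* separated by UV in WT nodes, where *Foxp3* did not. *Ctla4*, the inhibitory receptor, was at 16.7, 15.0 and 9.86 CPM without UV and at 29.2, 26.6 and 23.7 CPM after UV. *Ikzf2* was at 42.9, 38.5 and 30.1 CPM without UV and at 45.7, 60.0 and 54.6 CPM after UV. Each gene was higher in every irradiated WT library than in any unirradiated one. The log2 difference was 0.94 ± 0.27 for *Ctla4* (adjusted p = 0.0678) and 0.52 ± 0.16 for *Ikzf2* (adjusted p = 0.0742), so both missed the threshold. They passed it when the 6 WT libraries were fitted alone (edgeR adjusted p = 0.00751 and 0.0281) and under DESeq2 (0.00799 and 0.0300). In 1 set of simulated node counts DESeq2 made 19 false calls and edgeR 4, and each recovered 71 of 100 changes of 2-fold. The simulated spread was set by level alone, so this does not settle which tool errs in the real nodes. Calls by DESeq2 alone are not counted as calls here.

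*Il2ra*, the interleukin 2 receptor chain, was also separated in WT nodes. It stood at 68.2, 52.8 and 58.9 CPM without UV and at 70.7, 83.9 and 77.3 CPM after UV. On the log2 scale the difference was 0.37 ± 0.16 (edgeR adjusted p = 0.178), and it passed with the WT libraries fitted alone (0.0377) but not under DESeq2. *Ctla4*, *Ikzf2* and *Il2ra* were the 3 tested genes without overlap in WT nodes, all higher after UV. Of all tested genes 37.1% did not overlap there and 19.8% were higher without overlap. The spread of irradiated TG libraries entered these tests, since all 12 nodes shared 1 fit: without TG UV replicate 12 all 3 passed (adjusted p = 0.0378, 0.0322 and 0.0360), and without TG UV replicate 11 *Ctla4* did (0.0264).

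In TG nodes the same genes overlapped between UV groups. *Ctla4* was at 14.1, 18.2 and 14.2 CPM without UV and at 20.3, 9.75 and 21.9 CPM after UV, where replicate 11 was the lowest of all 12 nodes. *Ikzf2* was at 34.4, 43.7 and 39.7 CPM without UV and at 39.3, 31.0 and 45.7 CPM after UV. *Il2ra* was at 62.5, 51.6 and 58.0 CPM without UV and at 58.5, 50.2 and 84.5 CPM after UV. Replicate 11 was also the lowest of all nodes in *Foxp3*, *Il2ra* and *Tnfrsf18*. Without it, the UV difference in TG nodes was 0.44 for *Ctla4* and 0.12 for *Ikzf2* on the log2 scale, against 0.16 and -0.02 with it, and neither passed.

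Whether UV acted differently in the genotypes was tested by the interaction term. It was -0.54 ± 0.23 for *Ikzf2* and -0.78 ± 0.38 for *Ctla4* on the log2 scale (edgeR adjusted p = 0.848 for both), so no difference between genotypes was called. None of the 7 genes was called, against 0% of all genes, and 1 (*Ikzf2*) had an unadjusted p under 0.05 against 5.45%. Averaged over genotypes, UV called none of the 7 genes, against 8.61% of all genes. The averaged log2 differences nearest the threshold were 0.27 ± 0.094 for *Entpd1* (adjusted p = 0.0866) and 0.55 ± 0.19 for *Ctla4* (0.0903). DESeq2 called *Ctla4* there (adjusted p = 0.0303), and edgeR did without TG UV replicate 11 (0.0173).

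The GITR gene differed little by UV. *Tnfrsf18* was at 41.9, 39.6 and 36.7 CPM in WT nodes without UV and at 35.4, 37.7 and 34.6 CPM after UV. In TG nodes it was at 38.7, 37.0 and 37.1 CPM without UV and at 32.1, 28.1 and 36.9 CPM after UV, with no overlap. The TG log2 difference was -0.22 ± 0.10 (edgeR adjusted p = 0.536). The average over genotypes, -0.17 ± 0.071 (adjusted p = 0.129), passed without TG UV replicate 12 (-0.23, adjusted p = 0.0195).

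*Penk* and *Nt5e* were higher in every irradiated node than in every unirradiated node of the same genotype, which is the pattern they were picked for. *Penk*, the enkephalin precursor, was at 2.26, 2.32 and 1.23 CPM in WT nodes without UV and at 5.38, 6.25 and 5.21 CPM after UV. In TG nodes it was at 1.65, 0.965 and 1.41 CPM without UV and at 3.81, 3.38 and 4.37 CPM after UV. The fitted ratio was 2.89-fold in WT and 2.87-fold in TG nodes, log2 differences of 1.53 ± 0.27 and 1.52 ± 0.28. The counts behind them were 34 to 75 per library without UV and 97 to 179 after UV.

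*Nt5e*, the enzyme that makes adenosine from AMP, was at 14.0, 13.5 and 10.9 CPM in WT nodes without UV and at 28.2, 29.4 and 25.0 CPM after UV. In TG nodes it was at 13.1, 11.9 and 14.7 CPM without UV and at 19.9, 19.7 and 28.1 CPM after UV. The fitted ratio was 2.15-fold in WT and 1.71-fold in TG nodes, log2 differences of 1.10 ± 0.15 and 0.77 ± 0.15. The difference between these log2 values was -0.33 ± 0.22, and that for *Penk* was -0.01 ± 0.41.

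*Entpd1*, which acts upstream of *Nt5e* in the same pathway, separated in TG nodes and not in WT nodes. TG nodes held 19.4, 18.1 and 18.5 CPM without UV and 21.5, 21.1 and 28.4 CPM after UV. WT nodes held 20.3, 18.0 and 19.3 CPM without UV and 21.3, 19.1 and 25.3 CPM after UV. The log2 difference was 0.34 ± 0.13 in TG (edgeR adjusted p = 0.458) and 0.19 ± 0.13 in WT nodes (0.375), and the difference between them was not called (adjusted p = 0.892). *Tnfrsf18* and *Entpd1* were the 2 tested genes without overlap in TG nodes, against 13.3% of all tested genes.

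Ratios within a library do not depend on library scaling. *Foxp3* counts per 1000 counts of *Cd3e*, a chain of the T cell receptor complex, were 181, 157 and 158 in WT nodes without UV and 209, 207 and 211 after UV. The WT groups did not overlap (log2 difference 0.34, exact two-sided permutation test p = 0.1, the smallest that 3 against 3 allows). The 3 irradiated WT libraries were close together. TG nodes overlapped, at 207, 144 and 159 without UV and at 166, 134 and 212 after UV (exact permutation p = 1). Per 1000 *Cd4* counts the WT groups were again apart, at 105 to 129 without UV and 142 to 151 after UV (exact permutation p = 0.1).

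T cell markers moved beside these ratios. In WT nodes 12 of 12 T cell genes were lower after UV, 2 of them called, and their summed level was 4122 to 4154 CPM without UV and 3245 to 3656 CPM after UV. In TG nodes the sums overlapped, at 3686 to 3944 and 3547 to 4124 CPM. Erythroid markers stood at 121 to 262 CPM in WT nodes without UV and 10.8 to 39.5 CPM after UV, and fibroblast markers at 50.6 to 71.7 and 15.1 to 40.6 CPM. In TG nodes erythroid markers stood at 261 to 303 CPM without UV and 26.1 to 159 CPM after UV, without overlap, and fibroblast markers at 59.0 to 119 and 20.4 to 59.5 CPM. The part of these shifts in the members' values in WT and TG nodes, *Penk*, *Nt5e* and *Entpd1* included, was not tested.

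Set against *Foxp3*, *Penk* and *Nt5e* still separated by UV. *Penk* counts per 1000 *Foxp3* counts were 23.3 to 44.7 in WT nodes without UV and 81.3 to 95.8 after UV, and 19.7 to 26.9 and 58.4 to 77.3 in TG nodes. *Nt5e* counts per 1000 *Foxp3* counts were 206 to 261 and 391 to 480 in WT nodes, and 207 to 280 and 375 to 450 in TG nodes. These ratios use the values that chose the genes and have no test. *Ctla4* and *Ikzf2* per 1000 *Foxp3* counts were also apart in WT nodes, and they overlapped in TG nodes. In WT nodes *Ctla4* was at 187 to 289 without UV and 370 to 497 after UV. *Ikzf2* was at 570 to 741 and 777 to 918 there, with no test.

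**Figure D2:**
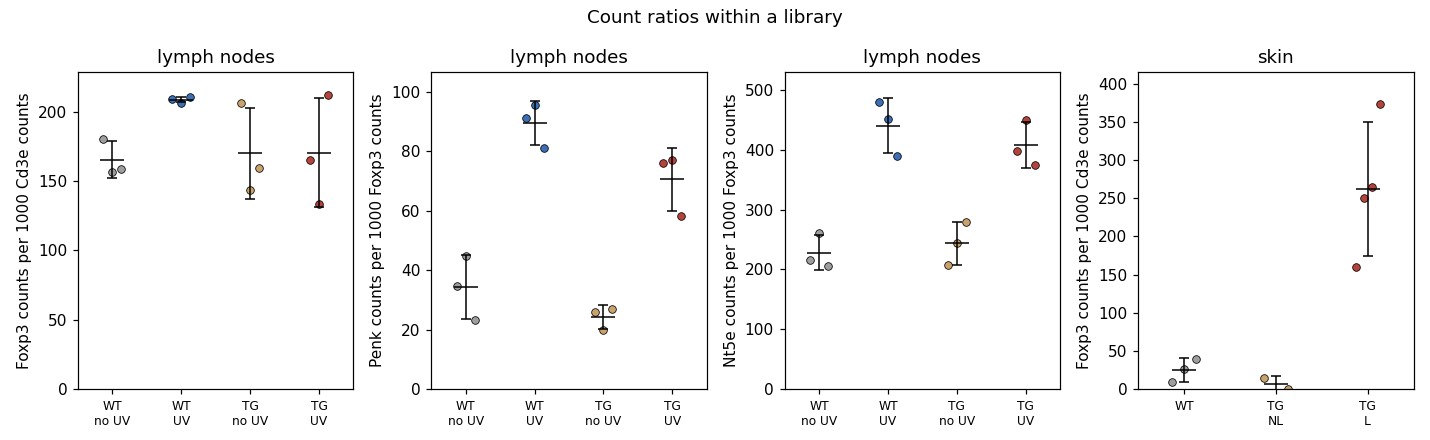
Count ratios within each library on linear axes that start at 0; points are libraries, the long dash is the mean and the bars are 1 SD, cut off at 0 (n = 3 per node group, and 3 WT, 2 NL and 4 L skin libraries). *Foxp3* per 1000 *Cd3e* counts is tightly grouped at 207 to 211 in irradiated WT nodes, *Penk* and *Nt5e* per 1000 *Foxp3* counts are higher after UV in both genotypes, and the skin ratio is 159 to 373 in L against 9.15 to 40.0 in WT.

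Genotype alone gave no call in nodes. Between TG and WT nodes without UV, 0 of 9 tested genes were called against 0% of all genes, and 0 had an unadjusted p under 0.05 against 3.39%. *Penk* was 1.65, 0.965 and 1.41 CPM in TG and 2.26, 2.32 and 1.23 CPM in WT nodes, overlapping, with a log2 difference of -0.53 ± 0.28 (edgeR adjusted p = 1). After UV, 0 of 7 tested genes were called against 0%, and 2 did not overlap (*Ctla4* and *Ikzf2*, both lower in TG) against 9.71% of all genes, or 4.32% lower without overlap. At an unadjusted p under 0.05 the same 2 passed, against 6.99%. Their log2 differences were -0.61 ± 0.27 and -0.47 ± 0.16 (edgeR adjusted p = 0.702 and 0.673). *Penk* was also lower in every irradiated TG node than in any irradiated WT node, by the values given above, and *Nt5e* overlapped, with log2 differences of -0.54 ± 0.26 and -0.29 ± 0.15 and no test. These comparisons share groups with the UV comparisons above.

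The wider pathways were read from 7 lists, with 95 tested genes in nodes. In WT nodes UV raised 8 of the 95 and lowered 2, or 8.42% and 2.11%, against 2.92% and 2.06% of all tested genes. The lists were chosen with earlier results of these data known, so their shares, here and below, are a description. The count depends on single libraries: 0 of the 95 were called without WT replicate 3, WT UV replicate 8 or WT UV replicate 9, and 17 without TG UV replicate 12. In the Treg signature list (36 tested) 4 rose and 2 fell, with a median log2 difference of 0.10 against -0.00 over all genes. *Icos*, a costimulatory receptor of activated and regulatory T cells, and *Ccr4*, a skin-homing chemokine receptor, rose by a log2 of 1.12 ± 0.19 (adjusted p = 0.0213) and 1.12 ± 0.24 (0.0304). *Foxo1* and *Runx1*, transcription factors of resting and developing T cells, fell by 0.42 (0.0451) and 0.33 (0.0439).

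Interleukin 2 signalling had 3 of 13 genes called higher and 0 lower in irradiated WT nodes. *Il2rb*, the receptor chain that pairs with IL2RA, rose by a log2 of 0.65 ± 0.16 (edgeR adjusted p = 0.0385), and *Socs1*, a feedback inhibitor of cytokine signalling, by 0.56 ± 0.13 (0.0325). In the interleukin 10 list 1 of 7 rose, *Maf*, a transcription factor that drives *Il10*, by 0.68 ± 0.16 (0.0361). The lists of CTLA4 and GITR partners (8 tested), adenosine (15), enkephalin processing (7) and EGF receptor ligands (9) had 0 genes called. The adenosine list does not hold *Nt5e*, and the enkephalin list does not hold *Penk*. In TG nodes 0 of 95 were called, against 5 under DESeq2 and 4 by edgeR without TG UV replicate 12. Averaged over genotypes 9 rose and 5 fell, against 4.81% and 3.80% of all genes, led by *Il1rl1*, the interleukin 33 receptor, at 0.94 ± 0.14 (0.00571). Those 14 calls compare with 7 without WT UV replicate 8 and 21 without TG UV replicate 12.

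The genes most like each member over the 12 nodes were named by Pearson correlation of log2 CPM among 12791 genes, as a description. For *Foxp3* they were *Ebi3* (r = 0.92), *Il2ra* (0.91), *Vav3* (0.90), *Izumo1r* (0.88) and *Ckap4* (0.86). For *Penk* they were *Lax1* (0.96), *Ttc32* (0.95), *Gpr15* (0.94), *Irgm2* (0.94) and *Nt5e* (0.94), and for *Nt5e* they were *Icos* (0.97), *Penk* (0.94), *Nfya* (0.94), *Grhl1* (0.94) and *Ttc32* (0.93). *Ebi3* encodes a subunit of interleukin 35, *Izumo1r* the folate receptor 4 of Tregs, and *Gpr15* a homing receptor of T cells. *Foxp3* with *Penk* had an r of 0.42 and *Foxp3* with *Nt5e* one of 0.45. All points share the UV groups, and the libraries differ in cell makeup.

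The second question was how lesional skin differs from nonlesional and WT skin. All 10 genes passed the filter there, *Foxp3* only through its L libraries. Against WT skin 5 of 10 rose in L skin (*Foxp3*, *Il2ra*, *Ctla4*, *Tnfrsf18*, *Areg*) and 0 fell, where 43.1% of all 19101 tested genes were called, 23.0% of them higher as a share of all. The median log2 difference over the 10 genes was 1.14, against 0.06 over all genes. The genes were chosen with earlier results of these data known, so their shares and median are a description. Against NL skin 2 rose (*Foxp3*, *Il2ra*) and 1 fell (*Ikzf2*), against 25.0% called in all. NL against WT skin called none of the 10, against 0% of all genes, and 2 (*Tnfrsf18*, *Nt5e*) had an unadjusted p under 0.05 against 7.67%. The L libraries take part in both of the first comparisons, which therefore are not independent. Per the study's methods, lesional skin was taken from any site with a lesion. Skin without lesions came from the back and from sites like those of the lesions. The labels name no body site, so site and lesion cannot be told apart.

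*Foxp3* was near the limit of detection in skin without lesions and clearly present in L skin. Its counts were 3, 6 and 12 in WT skin, 5 and 0 in NL skin and 55, 51, 59 and 72 in L skin. In CPM these are 0.0684, 0.142 and 0.297 in WT and 1.00, 1.26, 1.30 and 1.30 in L skin, with no overlap. *Foxp3* passed the filter on low counts only through the L libraries. Only a rise in L skin could thus be called for it, and its p-values in skin are a description. The fitted difference from WT was 2.83 ± 0.66 on the log2 scale, or 7.12-fold (edgeR adjusted p = 0.00870), and it passed without each library in turn, at a log2 of 2.46 without WT replicate 8 to 3.50 without WT replicate 10. Against NL skin it was 4.49 ± 0.90 (adjusted p = 0.00864). That difference is poorly determined, since NL replicate 3 held 0 counts, which allows a level of up to 0.0736 CPM (3 counts, counting error only). Without NL replicate 3 it was 3.62 (adjusted p = 0.0489). Without NL replicate 2 the NL library left is at 0 counts, and the fitted 8.79 (adjusted p = 0.0202) is no measure of size.

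*Il2ra* rose in both comparisons. It was at 1.94, 1.69 and 1.53 CPM in WT skin, 1.51 and 1.15 CPM in NL skin and 5.68, 4.00, 7.40 and 2.94 CPM in L skin. The log2 difference was 1.54 ± 0.33 from WT (edgeR adjusted p = 0.00629) and 1.91 ± 0.40 from NL skin (0.0103). The second lost its call without NL replicate 2 (2.12, adjusted p = 0.0605) or NL replicate 3 (1.72, 0.0976), when 1 NL library was left and assumed to vary like the other groups.

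*Ctla4* and *Tnfrsf18* rose against WT skin. *Ctla4* was at 0.753, 0.285 and 0.173 CPM in WT, 0.765 and 0.785 CPM in NL and 1.38, 0.740, 1.81 and 1.08 CPM in L skin, so that 1 L library lay below the highest WT library. Its log2 difference from WT was 1.62 ± 0.53 (edgeR adjusted p = 0.0349) and from NL 0.69 ± 0.58 (0.408). The call against WT was lost without any of NL replicates 2 and 3, L replicates 4 and 6 and WT replicates 9 and 10 (log2 1.27 to 1.62, adjusted p = 0.0529 to 0.113), and with L and WT fitted alone (adjusted p = 0.0529).

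*Tnfrsf18* was at 14.4, 11.3 and 12.2 CPM in WT, 23.2 and 21.8 CPM in NL and 25.7, 31.3, 18.4 and 14.7 CPM in L skin. Both TG skin groups lay above WT skin. The log2 difference of L from WT was 0.83 ± 0.25 (edgeR adjusted p = 0.0243), and that of NL from WT was 0.83 ± 0.29 with an adjusted p of 0.593. L against NL gave 0.00 ± 0.27 (adjusted p = 0.995). The L call was lost without L replicate 4 (0.76, adjusted p = 0.0502), WT replicate 9 (0.75, 0.0875) or WT replicate 10 (0.81, 0.0756).

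**Figure D3:**
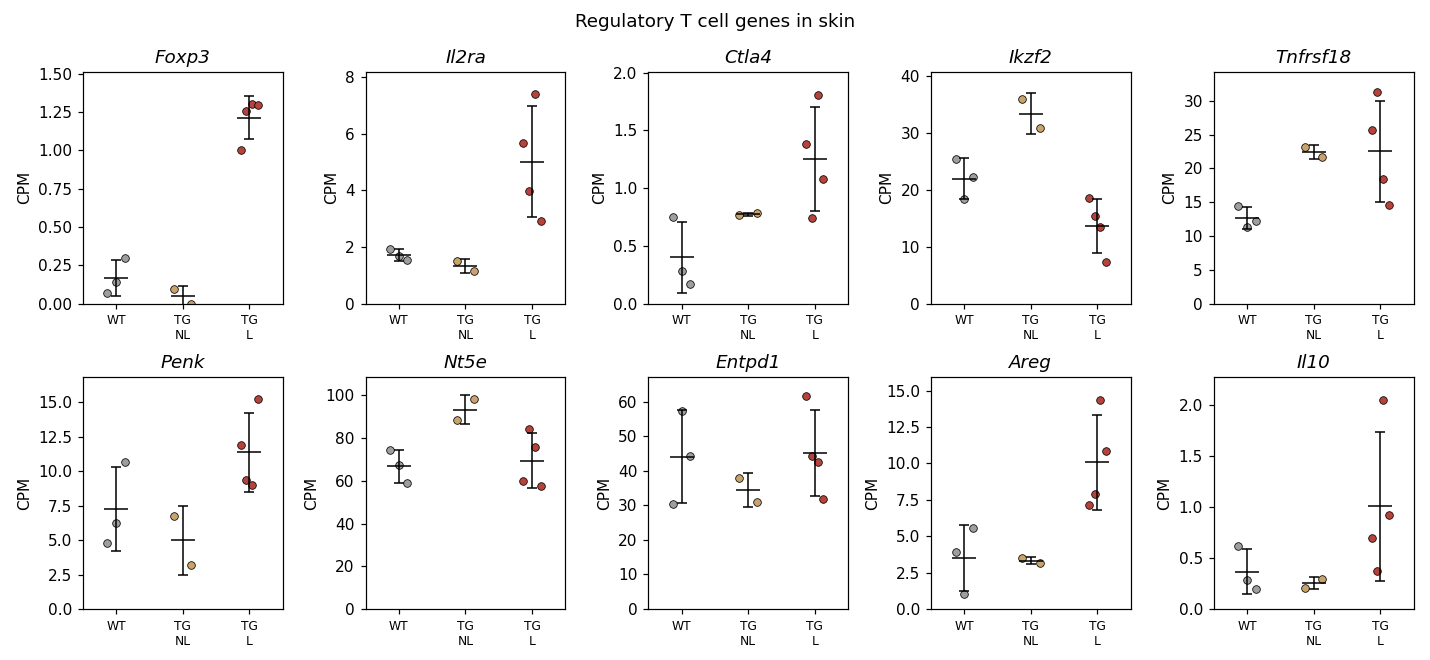
Levels of the 10 genes in skin, in TMM-scaled CPM on linear axes that start at 0; points are libraries, the long dash is the mean and the bars are 1 SD, cut off at 0 (3 WT, 2 NL and 4 L libraries). *Foxp3*, *Il2ra* and *Areg* are higher in all 4 L libraries than in any other, *Tnfrsf18* is higher than WT in both TG groups, and *Ikzf2* is lower in L than in NL skin.

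*Ikzf2* went the other way from *Foxp3*. It was at 25.4, 18.4 and 22.2 CPM in WT, 35.9 and 30.8 CPM in NL and 18.7, 15.4, 13.4 and 7.26 CPM in L skin. The log2 difference of L from NL was -1.29 ± 0.31 (edgeR adjusted p = 0.0174), and from WT -0.69 ± 0.28 (0.0751). The NL call was lost without NL replicate 2 (-1.17, adjusted p = 0.113) or NL replicate 3 (-1.40, 0.0765). DESeq2 called the difference from WT (adjusted p = 0.0361), as did edgeR without L replicate 4 (-0.87, 0.0320). In simulated skin counts DESeq2 made 33 false calls and edgeR 4, and they recovered 50 and 41 of 100 changes of 2-fold.

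*Areg*, the amphiregulin gene, was at 3.90, 1.04 and 5.59 CPM in WT, 3.48 and 3.14 CPM in NL and 7.16, 7.92, 14.4 and 10.9 CPM in L skin. All 4 L libraries lay above the other 5. The log2 difference was 1.52 ± 0.50 from WT (edgeR adjusted p = 0.0383) and 1.61 ± 0.59 from NL skin (0.0791). The call against WT was lost without NL replicate 2 or 3, L replicate 6 or 7 or WT replicate 8 (log2 1.30 to 1.60, adjusted p = 0.0585 to 0.0863), with no filter on low counts (0.0606) and with L and WT fitted alone (0.0605). L against NL passed under DESeq2 (0.0130), with L and NL fitted alone (0.0257) and without WT replicate 9 (0.0162).

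Short motifs were searched for in the promoters of the members. The stretches of *Areg* and *Il2ra* were picked by hand to be shown, and the matches in *Tnfrsf18* and *Foxp3* are only named below. RefSeq promoter windows on GRCm38.p6, 250 bases before to 50 after a start, matched 7 of the 10 genes in 9 entries. Both strands were searched for the cyclic AMP element TGACGTCA (held by 1.79% of 32851 promoters), an NF-kB motif (4.16%), the AP-1 motif TGANTCA (7.81%), the STAT motif TTCNNNGAA (8.30%) and the forkhead motif TGTTTAC (3.65%). None of these motifs overlapped another in the members' windows. Capitals mark the match in the following 64 bases, at chr5:91139510-91139573 and chr2:11642564-11642627, both on the plus strand and written 5′ to 3′.
Areg: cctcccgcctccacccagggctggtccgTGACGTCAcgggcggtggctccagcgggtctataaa
Il2ra: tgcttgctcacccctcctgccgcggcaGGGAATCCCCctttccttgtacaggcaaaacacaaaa

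Counted from the start site, the *Areg* match began at -61 and the *Il2ra* match at -201. The STAT motif was found in the windows of *Tnfrsf18* and of 1 of 2 *Foxp3* entries. No member window held the AP-1 or forkhead letters. A match of letters is a description and no measurement of binding.

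*Penk* in skin was at 4.81, 6.24 and 10.7 CPM in WT, 6.77 and 3.21 CPM in NL and 11.9, 9.37, 8.97 and 15.2 CPM in L skin. L and NL did not overlap, and L overlapped WT. It differed by a log2 of 0.65 ± 0.35 from WT (edgeR adjusted p = 0.167) and 1.18 ± 0.42 from NL (0.0677), where DESeq2 passed it (0.0169). *Penk* was picked for its level in irradiated nodes, and edgeR called it in none of the 3 skin comparisons.

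*Nt5e* was at 74.2, 67.5 and 58.8 CPM in WT, 88.4 and 98.2 CPM in NL and 59.9, 84.2, 76.0 and 57.5 CPM in L skin. Both NL libraries lay above all others. The log2 difference of L was 0.05 ± 0.15 from WT (edgeR adjusted p = 0.800) and -0.43 ± 0.17 from NL (0.0978), and that of NL from WT was 0.48 ± 0.18 (0.605). Without L replicate 5 the L to NL difference passed (-0.53, adjusted p = 0.0400). *Entpd1* overlapped in all 3 skin comparisons, with ranges of 30.5 to 57.3 CPM in WT, 31.0 to 37.9 in NL and 31.8 to 61.7 in L skin, and log2 differences of L of 0.03 ± 0.26 and 0.39 ± 0.30 (adjusted p = 0.928 and 0.366).

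*Il10* was low in skin, with 8 to 27 counts in WT, 11 and 12 in NL and 15 to 93 in L skin. Its level was 0.616, 0.285 and 0.198 CPM in WT, 0.210 and 0.294 CPM in NL and 0.692, 0.370, 2.05 and 0.919 CPM in L skin. It differed by a log2 of 1.45 ± 0.64 from WT (edgeR adjusted p = 0.0973) and 1.99 ± 0.77 from NL (0.0910). Both passed without L replicate 5, the lowest L library (1.72, adjusted p = 0.0449, and 2.27, 0.0481). The difference from NL also passed under DESeq2 (2.00, adjusted p = 0.0349).

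In all, 4 of 10 genes did not overlap between L and WT skin, 7 between L and NL and 5 between NL and WT. The same held for 49.4%, 49.4% and 35.0% of all tested genes.

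**Figure D4:**
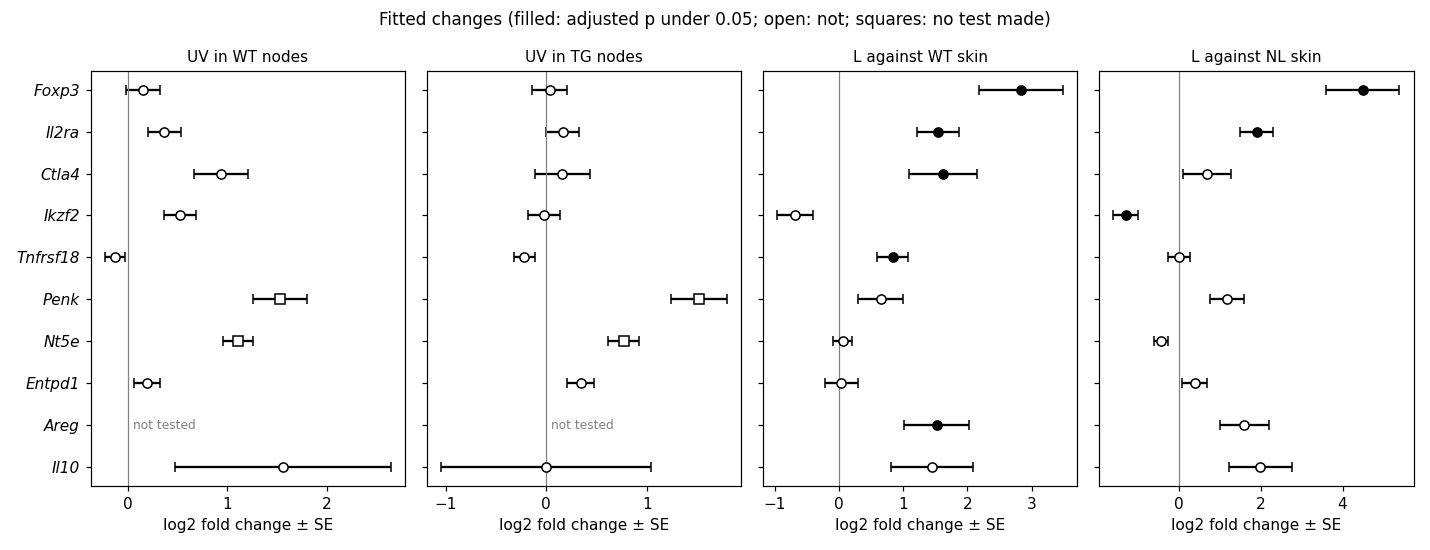
Log2 fold change of each gene with its SE from edgeR for UV in WT and TG nodes and for L against WT and NL skin, each panel with its own linear axis; filled points have an adjusted p under 0.05, open points do not, and squares mark *Penk* and *Nt5e* where no test was made; *Areg* was not fitted in nodes. *Foxp3* is near 0 with UV in nodes (0.15 and 0.04) and at 2.83 and 4.49 in L skin, while *Ikzf2* is at -1.29 against NL skin.

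T cell genes did not move as one in L skin, and the ratio of *Foxp3* to them depends on the gene. Of 12 T cell markers 8 were called higher and 0 lower against WT. *Cd4* rose by a log2 of 1.86 ± 0.40 (edgeR adjusted p = 0.00639) and *Trac*, the alpha chain constant region of the T cell receptor, by 3.53 ± 0.71 (0.00455). *Cd3e* had a difference of -0.46 ± 0.25 (0.161) and *Cd3g* one of -0.12 ± 0.26 (0.740).

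*Foxp3* counts per 1000 *Cd3e* counts were 9.15, 26.0 and 40.0 in WT skin, 14.3 and 0 in NL and 159, 250, 265 and 373 in L skin. L and WT did not overlap (exact two-sided permutation p = 0.0571, the smallest that 4 against 3 allows). Per 1000 *Cd4* counts *Foxp3* was at 44.1, 42.3 and 136 in WT, 54.9 and 0 in NL and 142, 148, 98.8 and 228 in L skin. These groups overlapped for L and WT, with a log2 difference of 1.11 (exact permutation p = 0.114).

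Other cell types differed between the skin groups as well. Hair shaft markers summed to 1467 to 4664 CPM in L skin against 0.173 to 1.18 CPM in the other 5 libraries, with 6 of 6 genes called higher, and melanocyte markers to 98.5 to 589 against 7.53 to 17.7 CPM, with 5 of 5 called. Neutrophil markers summed to 55.3 to 542 CPM in L skin against 9.84 to 19.3 CPM in the other 5 libraries, with 2 of 4 tested genes called higher against WT. NK cell markers summed to 8.41 to 17.5 against 5.66 to 7.22 CPM, with 1 of 5 called, or 20%, against 23.0% of all genes. Blood endothelial markers summed to 95.0 to 218 CPM in L skin against 235 to 381 CPM in the other 5 libraries, with 4 of 6 called lower against WT. Adipocyte markers summed to 761 to 3932 against 5942 to 10083 CPM, with 2 of 6 called lower. Skeletal muscle markers summed to 20.8 to 6089 CPM in L and 21100 to 30107 CPM in WT skin. Keratinocyte markers were at 10520 to 27232 CPM in L, 20948 to 21422 in NL and 11654 to 14163 in WT skin. The part of this makeup in the members' differences was not tested.

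Of 108 tested genes in the 7 pathway lists, 34 rose (31.5%) and 23 fell (21.3%) in L against WT skin, near the 23.0% and 20.2% of all genes. Of the genes named below, *Tigit*, *Icos*, *Pdcd1*, *Pdcd1lg2* and *Il19* passed the filter on low counts only through the L libraries. Only a rise in L skin could be called for them, against WT or NL. They are counted in the shares, and their p-values are a description. In the Treg signature list 14 of 35 rose and 6 fell. *Tigit*, an inhibitory receptor, rose from 0 to 1 counts per WT library to 4 to 25 counts per L library (edgeR adjusted p = 0.00504), too few in WT skin for a fold. *Icos* rose by a log2 of 4.82 ± 0.69 (9.18e-04), from 4 to 9 counts per WT library to 122 to 308 counts per L library. *Satb1*, a chromatin organizer, fell by 1.79 (8.38e-04). *Il12a*, the partner of *Ebi3* in interleukin 35, fell from 20 to 41 counts per WT library to 0 to 8 counts per L library (0.00784). Its L counts are too few for a fold.

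Among the partners of CTLA4 and GITR 4 of 10 rose, led by *Pdcd1*, which encodes PD-1, and its ligand *Pdcd1lg2*. *Pdcd1* was at 1 to 4 counts per WT library and 27 to 114 counts per L library (edgeR adjusted p = 0.00335). *Pdcd1lg2* was at 2 to 5 and 33 to 91 counts (6.24e-04). Both had too few counts in WT skin for a fold. In the interleukin 2 list 4 of 12 rose and 4 fell. The feedback inhibitors *Socs1* at 1.83 ± 0.40 (0.00646) and *Cish* at 1.00 ± 0.22 (0.00674) rose, while *Stat5b* and *Stat5a*, the transcription factors of the pathway, fell by 1.29 (1.33e-04) and 0.89 (0.00196).

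The adenosine list leaned lower, with 2 of 20 genes called higher and 8 called lower and a median log2 difference of -0.65. The ectoenzyme genes *Entpd3* at 3.32 ± 0.44 (edgeR adjusted p = 6.57e-04) and *Enpp1* at 1.31 ± 0.26 (0.00397) rose. *Entpd2* fell by 1.46 (4.12e-04), and *Ak1*, an adenylate kinase abundant in muscle, fell by 3.06 (0.00519). *Nt5e*, which this list does not hold, and *Entpd1* were not called against WT skin, by the values given above.

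Of the EGF receptor ligands and receptors 7 of 12 rose and 2 fell. *Hbegf* at 2.01 ± 0.62 (edgeR adjusted p = 0.0306) and *Epgn* at 1.89 ± 0.34 (0.00266), ligands like *Areg*, rose, while *Egf* fell by 3.30 (0.00895) and *Btc* by 2.01 (5.19e-04). In the enkephalin list 2 of 8 rose and 1 fell. *Ctsl*, a protease, rose by 0.58 ± 0.17 (0.0208) and *Dpp3* by 0.53 ± 0.097 (0.00286), while *Mme* fell by 0.60 (0.0349). In the interleukin 10 family *Il19* rose from 0 to 3 counts per WT library to 15 to 96 counts per L library (0.00540), and *Il22ra2*, a decoy receptor, fell by 2.29 (0.00454).

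Against NL skin 18 of 108 genes rose and 14 fell, against 13.2% and 11.8% of all genes. The 32 calls compare with 13 without NL replicate 2 and 12 without NL replicate 3. *Icos*, *Tigit*, *Pdcd1*, *Pdcd1lg2*, *Socs1*, *Entpd3*, *Epgn* and *Il19* were again among the largest rises of their lists, and *Satb1*, *Il12a*, *Stat5a*, *Stat5b*, *Ak1*, *Egf*, *Btc* and *Il22ra2* among the largest falls. In the 2 NL libraries *Pdcd1* was at 0 counts, *Tigit* at 1, *Pdcd1lg2* at 2 and 4 and *Il19* at 1 and 4. The sizes of those rises are poorly determined. *Pcsk1* and *Pcsk2*, the convertases that cut proenkephalin, rose by a log2 of 3.24 ± 0.96 (edgeR adjusted p = 0.0388) and 5.20 ± 1.09 (0.0106). *Pcsk1* was at 2 and 17 counts in NL and 50 to 195 counts in L libraries. *Pcsk2* was at 0 and 5 counts in NL and 45 to 156 counts in L libraries. The sizes of both rises are poorly determined too. These values share the L libraries with the comparison to WT. NL against WT skin called 0 of the 108, and DESeq2 called 1.

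Over the 9 skin libraries the genes most like *Foxp3* were *Ska1* (r = 0.98), *Il4i1* (0.98), *Nup35* (0.97), *Bdkrb2* (0.97) and *Manf* (0.97), as a description. None of the other members was among them. All points share the contrast between L and other skin.

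The genes lie apart in the genome on GRCm38. *Foxp3* is at chrX:7573644-7595245, *Penk* at chr4:4133531-4138819 on the minus strand and *Nt5e* at chr9:88327197-88372092, each a protein-coding gene measured over its exons. *Foxp3* overlaps *Ppp1r3f*, *Gm36995* and *Ccdc22*, on the other strand, and *Flicr*, on its own strand, while *Penk* overlaps *A830012C17Rik* on the other strand. Whether the counting used strand is not given in the sources used here, so reads of such partners cannot be told apart from these counts.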

How the data were processed

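Per the study's methods, reads were aligned to GRCm38 with STAR 2.7.8a and counted with RSEM 1.3.3, and the submitters' processing notes also list cutadapt 4.8, FastQC 0.11.8 and MultiQC 1.20. The authors deposited expected counts per gene, rounded to whole numbers, as 1 table for 12 node and 1 for 9 skin libraries. Each table was fitted with edgeR 4.0.16 in R 4.3.3: filterByExpr by group, TMM, robust quasi-likelihood F-test with 1 mean per group and all libraries of the tissue sharing the spread, Benjamini-Hochberg over the tested genes of a comparison, threshold 0.05. SE is the absolute log2 fold change over the square root of F. CPM are TMM-scaled and per kilobase values use GENCODE M21 exon lengths. Count ratios were compared on log2 with 0.5 added, by exact permutation. Depth sets the precision: a library at 0 counts allows up to 3.

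The members and the gene lists were chosen with earlier results of these data known. Named were all members, per list and comparison at most 2 rises and 2 falls largest among called genes without overlap, and the 5 genes most correlated with *Foxp3*, *Penk* or *Nt5e* (log2 CPM with a prior count of 2, mean of at least 1 CPM). Alternatives were DESeq2 1.42.0, other scaling, filters and fits, and leaving out each library. The functions were tested on simulated counts with 200 changed genes per tissue. There edgeR made 4 false calls in nodes and 4 in skin, against 19 and 33 for DESeq2. Of 100 changes of 2-fold edgeR recovered 71 in nodes and 41 in skin, against 71 and 50 for DESeq2. The simulated spread followed the level of a gene alone, without outlying libraries, so the real error of either tool was not measured. Calls made by DESeq2 alone are not counted as calls. Replicates differed by more than sampling noise. All samples carry the same batch label. Promoter sequences are from RefSeq on GRCm38.p6.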

Additional observations from a re-analysis of the deposited data

Results flagged for a closer look

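*Foxp3* in L skin replicate 4, at 1.00 CPM, lay apart from the other 3 L libraries at 1.26 to 1.30 CPM. Its gap to the nearest library was 0.859 of the range of the group, above the critical value of Dixon's test for 4 samples. Chance flags about 1 in 20 groups, and 10 were looked at. The library was still above every WT and NL library, and without it the log2 difference from WT was 2.91 (edgeR adjusted p = 0.0121) against 2.83 with it.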

How the results depend on the processing

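No paired analysis was possible because the labels number the libraries separately, so that the groups compared share no replicate number. The settings were DESeq2, RLE and upper-quartile scaling, no filter and a stricter one on low counts, a fit without robust estimation, the compared groups alone and leaving out each library; for the ratios, summed *Cd3d*, *Cd3e* and *Cd3g*. None was added later. The cause of the changes was not tested unless stated.

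Of members called with UV in WT nodes there were 0, against 2 under DESeq2, 3 with the WT groups alone and 0 to 3 without 1 library (3 without TG UV replicate 12, 1 without TG UV replicate 11). Averaged over genotypes there were 0, against 1 under DESeq2 and 0 to 1 without 1 library. For L against WT skin there were 5, against 3 with at least 10 counts in every library (*Foxp3* and *Ctla4* fail that filter), 3 with the groups alone and 3 to 6 without 1 library. For L against NL skin there were 3, against 6 under DESeq2 and 1 to 5 without 1 library (1 without NL replicate 2 or NL replicate 3, 5 without L replicate 5). In the other 5 comparisons 0 were called under all settings.

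Over all genes UV in WT nodes called 805, against 1969 under DESeq2, 2370 with the WT groups alone and 0 (without WT UV replicate 8) to 2621 (without TG UV replicate 12) without 1 library. UV in TG nodes called 0, against 137 under DESeq2 and 319 by edgeR without TG UV replicate 12. Averaged over genotypes the count was 1393, against 2440 under DESeq2 and 388 (without WT UV replicate 8) to 3753 (without TG UV replicate 12). DESeq2 called 8 for the interaction, 2 and 19 for genotype without and after UV and 80 for NL against WT skin. L against NL skin called 3138 with the groups alone and 1260 (without NL replicate 3) to 5175 (without L replicate 4) without 1 library. Of pathway genes UV in WT nodes called 17 under DESeq2 against 10, and UV in TG nodes 5 against 0.

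Some uncalled log2 differences changed sign. *Entpd1* in L against WT skin was -0.019 with at least 10 counts in every library, and *Tnfrsf18* in L against NL skin was -0.0032 under that filter and -0.0021 with the groups alone. The ratio of *Foxp3* to *Cd3e* for UV in TG nodes was 0.051 with the summed denominator. Without 1 library, UV in TG nodes ran from -0.23 to 0.19 for *Foxp3*, -0.078 to 0.32 for *Il2ra*, -0.040 to 0.44 for *Ctla4*, -0.16 to 0.12 for *Ikzf2*, -0.69 to 1.45 for *Il10* and -0.17 to 0.16 for the *Cd3e* ratio. UV averaged over genotypes ran from -0.039 to 0.17 for *Foxp3*. The interaction ran from -0.38 to 0.037 for *Foxp3*, -0.19 to 0.0079 for *Tnfrsf18*, -0.20 to 0.23 for *Penk* and -0.0028 to 0.27 for *Entpd1*.

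TG against WT nodes without UV ran from -0.16 to 0.068 for *Foxp3*, -0.15 to 0.039 for *Il2ra*, -0.029 to 0.32 for *Ctla4*, -0.053 to 0.19 for *Ikzf2*, -0.058 to 0.11 for *Nt5e*, -0.082 to 0.0046 for *Entpd1*, -0.080 to 0.15 for the *Cd4* ratio and -0.12 to 0.14 for the *Cd3e* ratio. After UV it ran from -0.041 to 0.23 for *Entpd1* and -0.60 to 0.69 for *Il10*. In skin, L against WT ran from -0.17 to 0.26 for *Entpd1* and -0.053 to 0.14 for *Nt5e*, L against NL from -0.20 to 0.16 for *Tnfrsf18*, and NL against WT from -0.84 to 0.054 for *Il10* and -0.53 to 0.42 for *Areg*.

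With 2 NL libraries, leaving 1 out gives a fit in which the other is assumed to vary like the remaining groups. Depth limits *Areg* and *Il10* in nodes and *Foxp3* in WT and NL skin, where 0 to 12 counts were seen.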
